A study of Bos taurus with 10 samples.

Results

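The leukocyte miRNAs are 7 mature microRNAs (miRNAs) whose names, after the cattle prefix, are miR-142, miR-146a, miR-146b, miR-150, miR-155 or miR-223, with or without an arm suffix: bta-miR-142-5p, bta-miR-142-3p, bta-miR-146a, bta-miR-146b, bta-miR-150, bta-miR-155 and bta-miR-223. They were taken by name from the 978 miRNA names listed in each of 2 tables of bull sperm small RNA, and all 7 were found in both tables. The series holds 10 sperm samples sequenced as small RNA libraries. They form 3 samples with low and 3 with high bull fertility, and 3 with low and 3 with high associated daughter fertility, 2 samples being in both comparisons. Of these 2, 1 carries the labels high bull and low daughter fertility and the other the labels high bull and high daughter fertility, so both lie in the high bull fertility group. All samples are untreated Bos taurus sperm, the labels name no bull, breed, age or fertility cut-off, and no step that removes somatic cells from the semen is given in the sources used here.

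miRNAs are short RNAs that guide Argonaute proteins to messenger RNAs, mainly through the bases of the seed near their 5′ end. The miRNAs described here are best known from blood cells. In mammals miR-223 is abundant in neutrophils and other myeloid cells, miR-142 is expressed across blood cell lineages and gives 2 mature arms from 1 hairpin, and miR-150 is abundant in mature lymphocytes. miR-155 is induced in activated lymphocytes and macrophages, and miR-146a is induced through NF-kappaB and limits Toll-like receptor signalling by targeting its adaptors TRAF6 and IRAK1. miR-146b comes from a separate gene and has the same seed as miR-146a. Semen can hold leukocytes beside sperm, and sperm carry little RNA per cell, so these miRNAs are often read as signs of other cells in a sperm preparation.

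The 6 hairpin genes were matched by symbol to RefSeq genes of the ARS-UCD2.0 assembly, used for names and neighbours alone. Of these 6 genes, 2 lie within the bounds of a protein-coding gene there, MIR142 in TSPOAP1 and MIR223 in VSIG4. None of the 6 has another annotated miRNA gene within 10 kb, so the 7 mature miRNAs stand for 6 separate loci, and only the miR-142 arms share a precursor.

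The values are the authors' own. Each table gives 1 mean normalized count per miRNA over the 6 samples of its comparison. It also gives the log2 fold change, the standard error (SE) of that change and the p-values of a Wald test. The tables hold no value per sample, and the tables were normalized separately. Fold changes keep the deposited sign. A positive value means higher in the low fertility group. The files do not name this direction: it was read from sparse miRNAs, and the reading is weaker for daughter than for bull fertility. Approximate levels per group were computed here from the mean and the fold change, taking the mean as the midpoint of 2 groups of 3, and carry no error of their own. Total reads per library are unknown. Relative depth, read from what 1 read was worth in the tRNA fragment table, was 0.945 to 1.89 with low and 0.618 to 1.39 with high bull fertility. For daughter fertility it was 0.903 to 2.21 in the low and 0.618 to 0.785 in the high group.

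All 7 leukocyte miRNAs were detected, with mean levels at ranks 125 to 893 of the 978 names and far below the most abundant sperm miRNAs. Together they held 0.430% of the summed mean normalized counts of the authors' deposited bull fertility table and 0.435% of the daughter fertility one. By comparison miR-375, the most abundant miRNA of both tables, had a mean of 6860 for bull and 7694 for daughter fertility in the authors' deposited tables. The median over all 978 names was 46.0 for bull and 57.8 for daughter fertility. In bulk libraries fewer cells of a type and less RNA per cell cannot be told apart.

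The lymphocyte-associated miR-150 and miR-155 were the most abundant of the 7. In the authors' deposited tables bta-miR-150 had a mean of 167 normalized counts for bull fertility, rank 125 of all names, and 177 for daughter fertility, rank 158. For bta-miR-155 the means were 140.3 at rank 169 and 193 at rank 141 in the authors' deposited tables. Names with a higher mean than miR-150 made up 12.7% and 16.1%, and those above miR-155 17.2% and 14.3%, for bull and daughter fertility. Their order relative to each other differed between the tables.

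The myeloid marker miR-223 and the blood cell marker miR-142-3p lay nearer to the median of all names. In the authors' deposited tables bta-miR-223 had a mean of 54.0 for bull and 84.7 for daughter fertility, at ranks 426 and 353. The values of bta-miR-142-3p were 51.8 and 53.2 in the authors' deposited tables, at ranks 439 and 527. The other arm, bta-miR-142-5p, was the lowest of the 7, with means of 9.04 and 8.99 in the authors' deposited tables. The ratio of the 3p to the 5p arm was thus 5.73 for bull and 5.92 for daughter fertility. Both arms are of mature miRNA length, and the efficiency with which library preparation captures each is not known here.

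The paired miR-146 genes lay below miR-142-3p for bull fertility, while for daughter fertility miR-146b lay above it and miR-146a below it, and they differed most between the tables. In the authors' deposited tables bta-miR-146a had a mean of 22.0 for bull and 50.6 for daughter fertility, and bta-miR-146b had 31.9 and 58.8. For miR-146a the daughter fertility mean was 2.31 times the bull fertility mean, and for miR-146b it was 1.84 times. Over the 858 miRNAs with a mean of at least 10 in both tables the median ratio was 1.19, with quartiles of 1.02 and 1.44, and 4.20% had a larger ratio than miR-146a. The ratios were 1.57 for miR-223, 1.37 for miR-155, 1.06 for miR-150, 1.03 for miR-142-3p and 0.995 for miR-142-5p. The tables share 2 of their 6 libraries, and these ratios are a description with no test.

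**Figure D1:**
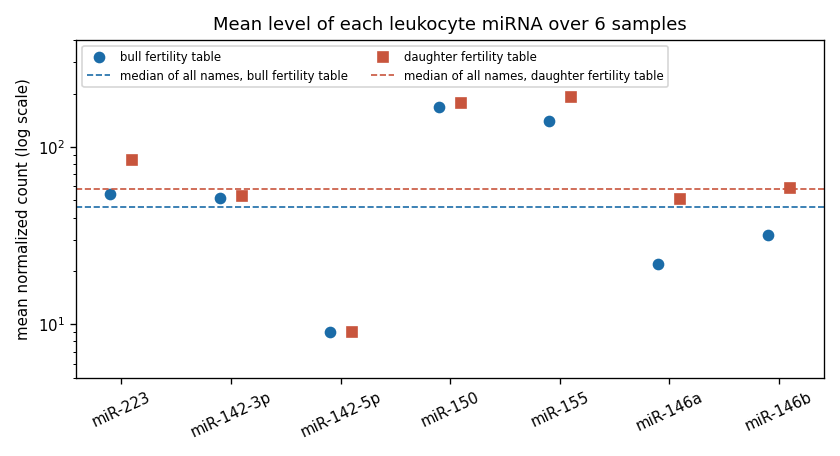
Mean normalized count of each leukocyte miRNA on a log scale, over the 6 samples of the bull fertility table (circles) and of the daughter fertility table (squares), with the median of all 978 names as dashed lines. miR-150 and miR-155 lie above the medians in both tables, miR-142-5p lies far below them, and miR-146a and miR-146b have the largest gaps between the tables.

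The list was set beside miRNAs known as markers of other cell types, whether or not semen holds them. Male germ cell names (miR-34b, miR-34c, miR-449a, miR-449b and miR-202) held 3.04% and 3.03% of the summed means in the authors' deposited tables for bull and daughter fertility. Their leading member miR-34c, abundant in late male germ cells, had means of 1914 and 2442 in the authors' deposited tables. The 6 epithelial names held 0.321% and 0.286%, the 3 red blood cell names 0.239% and 0.215%, and the 4 smooth muscle and stroma names 0.263% and 0.282%. The 4 skeletal muscle names held 0.156% and 0.125%, and the 2 endothelial names 0.0417% and 0.0343%. The 5 further lymphocyte names described below held 0.565% and 0.512%, more than the 0.430% and 0.435% of the leukocyte names. The 9 Toll-like receptor responsive names described below held 2.63% and 3.18%. The lists differ in length: per name the leukocyte list averaged 68.0 and 89.4 normalized counts, against 88.3 and 103 for red blood cell names and 673 and 871 for germ cell names. No test was made of these values.

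**Figure D2:**
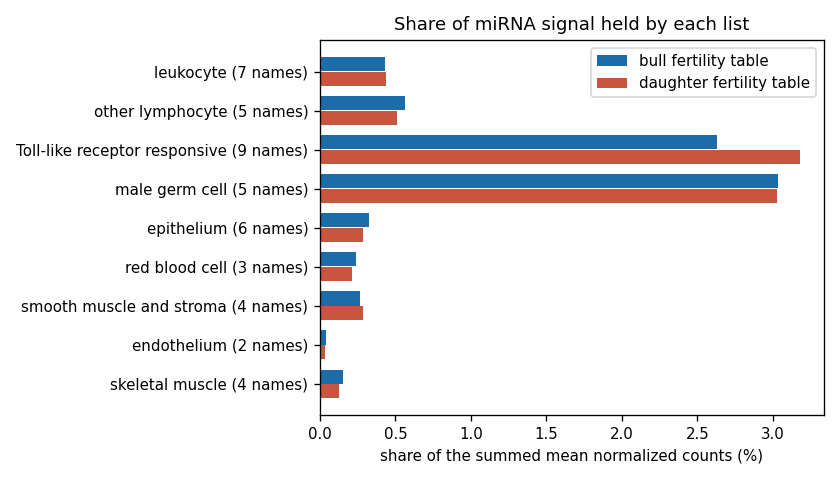
Share of the summed mean normalized counts held by each list of marker miRNAs, in percent, in the bull and daughter fertility tables, with the number of names found in brackets. The leukocyte bars stand at 0.430% and 0.435%, the male germ cell bars at 3.04% and 3.03%, and the Toll-like receptor responsive bars at 2.63% and 3.18%.

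For bull fertility the leukocyte miRNAs showed no difference past the threshold, an adjusted p under 0.05. Of the 7 members 0 passed, and 0 of all 964 miRNAs with a p did, a background of 0%. At an unadjusted p under 0.05 the counts were 0 of 7 members and 45 of 964 miRNAs, or 4.67%, of which 17 miRNAs, or 1.76% of the table, had a positive and 28, or 2.9%, a negative fold change. The deposited fold change was positive for 5 members and negative for 2, with a median of 0.26, where 49.4% of all tested miRNAs were positive, with a median of -0.01. All 7 of the 95% intervals included 0.

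The largest of these values was that of miR-146a, the NF-kappaB-induced regulator. Its approximate level was 32.0 normalized counts with low bull fertility and 11.9 with high bull fertility. By the authors' deposited table this is a log2 fold change of 1.43 (SE 0.74), or 2.69-fold with a 95% interval of 0.988 to 7.30, and the p was 0.0528 before and 0.986 after Benjamini-Hochberg adjustment of the authors' Wald test. Shrunk by a normal prior, the log2 fold change was 0.24. Among the tested miRNAs 5.60% had a larger fold change in either direction. Its seed partner miR-146b had the opposite sign, at about 23.5 normalized counts with low and 40.3 with high bull fertility. The authors' deposited table lists miR-146b at a log2 fold change of -0.78 (SE 0.62), a 0.582-fold level with an interval of 0.250 to 1.35. The difference between the fold changes of these miRNAs was not tested, since both come from the same libraries and their covariance is unknown.

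The remaining members lay closer to 0. For miR-142-3p the approximate level was 61.0 with low and 42.6 with high bull fertility, and the log2 fold change was 0.52 (SE 0.48) by the authors' deposited table. miR-142-5p, from the same hairpin, stood at 0.26 (SE 0.82) in the authors' deposited table. The myeloid marker miR-223 was at about 61.0 with low and 47.0 with high bull fertility, a log2 fold change of 0.38 (SE 0.49) in the authors' deposited table. The most abundant members had the narrowest intervals. For miR-150 the log2 fold change was 0.19 (SE 0.43) in the authors' deposited table, 1.14-fold with an interval of 0.635 to 2.04. For miR-155 it was -0.26 (SE 0.40) in the authors' deposited table, 0.835-fold with an interval of 0.483 to 1.44.

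**Figure D3:**
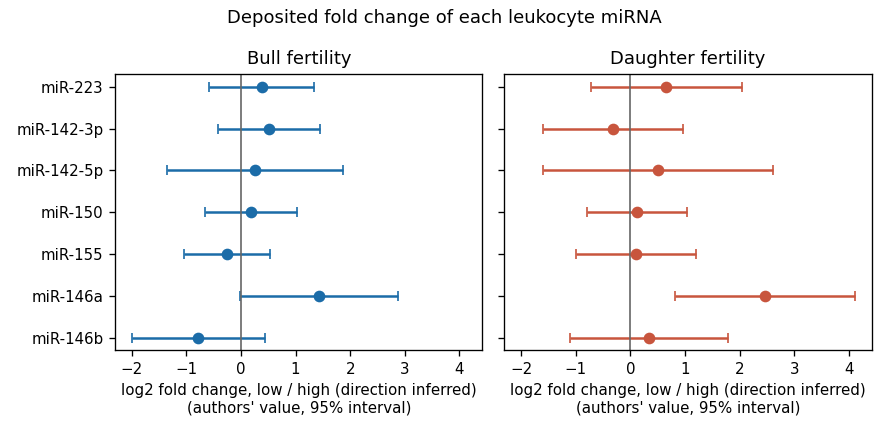
Authors' log2 fold change of each leukocyte miRNA, low over high fertility by the inferred direction, with its 95% interval (fold change ± the normal quantile times the SE), for bull fertility on the left and daughter fertility on the right. 13 of the 14 intervals include 0, and that of miR-146a for daughter fertility runs from 0.83 to 4.12.

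For daughter fertility miR-146a stood apart from the other members in size, but did not pass the threshold. Its approximate level was 85.8 normalized counts with low daughter fertility and 15.5 with high daughter fertility. The authors' deposited table gave miR-146a a log2 fold change of 2.47 (SE 0.84), or 5.55-fold with a 95% interval of 1.77 to 17.3. Shrunk by a normal prior, it was 1.40 on the log2 scale. The p of the authors' Wald test was 0.00323, the eighth smallest of the table, and 0.340 after Benjamini-Hochberg adjustment over 951 miRNAs. Of the tested miRNAs 2.52% had a larger fold change in either direction. Whether 1 library carries the difference was not tested, since the tables hold no value per library.

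Of the 7 members 0 passed the adjusted threshold for daughter fertility, against 2 of 951 miRNAs, or 0.21%. These 2 were miR-323b-3p and miR-11999, neither of them a leukocyte miRNA. At an unadjusted p under 0.05 there was 1 member of 7, miR-146a, against 58 of 951 miRNAs, or 6.1%. Of these 58 miRNAs, 36 had a positive fold change, which is 3.79% of the table. The deposited fold change was positive for 6 members and negative for 1, with a median of 0.34, where 53.6% of all tested miRNAs were positive, with a median of 0.08.

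The other members again lay within their errors. miR-223 was at about 104 normalized counts with low and 65.7 with high daughter fertility, and the log2 fold change was 0.66 (SE 0.70) by the authors' deposited table, 1.58-fold with an interval of 0.607 to 4.11. For miR-146b the level was about 65.7 with low and 51.9 with high daughter fertility, a log2 fold change of 0.34 (SE 0.74) in the authors' deposited table. The only negative member was miR-142-3p, at about 47.4 with low and 59.1 with high daughter fertility, a log2 fold change of -0.32 (SE 0.66) in the authors' deposited table. Its partner arm miR-142-5p stood at 0.50 (SE 1.07) in the authors' deposited table, the widest interval of the 7, at the lowest level.

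The lymphocyte-associated pair was near 0. In the authors' deposited table miR-150 had a log2 fold change of 0.12 (SE 0.47), 1.09-fold with an interval of 0.574 to 2.06. For miR-155 the authors' deposited table gave 0.10 (SE 0.56), 1.07-fold with an interval of 0.503 to 2.29. The approximate levels were 184 with low and 169 with high daughter fertility for miR-150, and 199 and 186 in that order for miR-155.

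**Figure D4:**
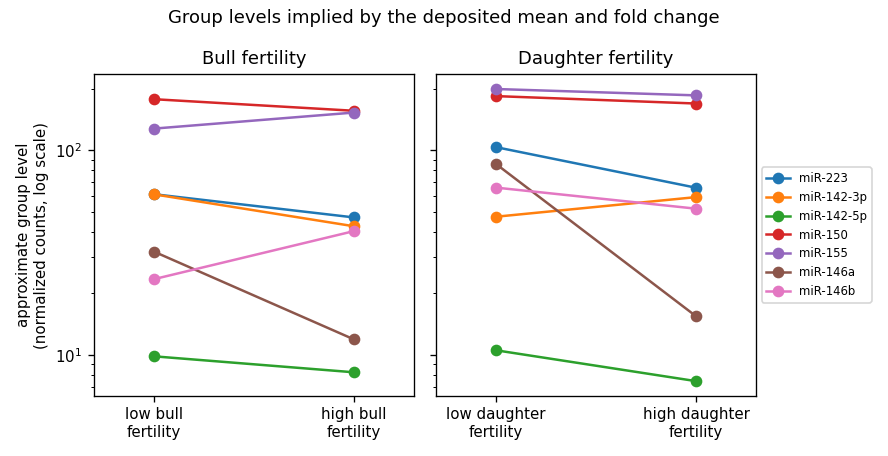
Approximate level of each leukocyte miRNA per group in normalized counts on a log scale, computed from the authors' mean and fold change, with the low fertility group on the left of each panel and the high fertility group on the right. The line of miR-146a is the steepest in both panels, at 32.0 with low and 11.9 with high bull fertility and at 85.8 with low and 15.5 with high daughter fertility, and miR-150 and miR-155 are nearly level for daughter fertility.

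Both comparisons share 2 libraries of the high bull fertility group, so the fold changes of a member in the 2 comparisons are not separate evidence. For miR-146a these were 1.43 for bull and 2.47 for daughter fertility, for miR-223 0.38 and 0.66, and for miR-142-5p 0.26 and 0.50 in the authors' deposited tables. Signs differed between the comparisons for miR-142-3p, miR-146b and miR-155, each with intervals that include 0 in both. If the inferred daughter fertility direction were turned round, all daughter fertility signs given here would turn with it, and miR-146a would be higher with high daughter fertility.

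Markers of other cells had the following values in the same groups. Germ cell names summed to about 4431 normalized counts with low and 2295 with high bull fertility, and to about 2946 with low and 5759 with high daughter fertility, computed as for the members. All 5 germ cell names had a negative fold change for daughter fertility. For bull fertility 2 of 5 were positive and the median was -0.15, while the sum was higher with low bull fertility. Epithelial names summed to about 384 with low and 329 with high bull fertility, and to 344 and 479 for daughter fertility. In the same order, red blood cell names summed to 258, 272, 301 and 317. Smooth muscle and stroma names summed to 306, 278, 422 and 390. Endothelial names summed to 40.8, 51.6, 54.0 and 44.7, and skeletal muscle names to 144, 201, 158 and 201. No germ cell name and no name of these lists passed the adjusted threshold in either comparison, and the sums carry no test. At an unadjusted p under 0.05 there was 1 of 6 epithelial names for daughter fertility, against 6.1% of all tested miRNAs. This was miR-200b, with a log2 fold change of -1.67 (SE 0.73) in the authors' deposited table. No germ cell name was under 0.05 in either comparison. For miR-34c the authors' deposited tables gave a log2 fold change of 1.34 (SE 0.82) for bull and -1.33 (SE 0.76) for daughter fertility, neither past the threshold. The leukocyte names summed to about 493 with low and 459 with high bull fertility, and to about 697 with low and 554 with high daughter fertility. Within these sums miR-146a alone stood at 32.0 and 11.9 for bull and at 85.8 and 15.5 for daughter fertility. The sums therefore do not show a difference of the whole list. Of the epithelial names 6 of 6 were positive for bull fertility, with a median of 0.18 and a lowest value of 0.02. For daughter fertility 2 of 6 were, with a median of -0.23. Among all tested miRNAs 49.4% were positive for bull and 53.6% for daughter fertility. The part of these markers in the miR-146a values was not tested, nor was that of depth. For daughter fertility the depth ranges given above did not overlap, at 0.903 to 2.21 with low and 0.618 to 0.785 with high. Depth and daughter fertility therefore cannot be told apart here.

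Other immune miRNAs had fold changes of both signs in each comparison. Whether they change together with miR-146a was not tested. Of 9 miRNAs described as responsive to Toll-like receptor signals in mammalian macrophages, 4 were positive and 5 negative for bull fertility, and 2 were positive and 7 negative for daughter fertility, with medians of -0.10 and -0.59. No member of this list passed the adjusted threshold in either comparison. For miR-21-5p, also abundant in many other cells, the authors' deposited tables gave 0.95 (SE 0.72) for bull and -1.20 (SE 0.57) for daughter fertility. The list's smallest p for daughter fertility was that of miR-147, with a log2 fold change of -2.17 (SE 0.69) in the authors' deposited table, named after its value was seen. At an unadjusted p under 0.05 the daughter fertility list had 2 of 8 tested members, miR-147 and miR-21-5p, both negative, where 2.31% of all tested miRNAs were under 0.05 and negative and 6.1% under 0.05 in either direction.

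Among 5 further miRNAs that are high in lymphocytes, the miR-181 members and miR-342, 1 was positive for bull fertility and 2 for daughter fertility, with medians of -0.52 and -0.85. The authors' deposited tables gave miR-342 a log2 fold change of -0.86 (SE 0.58) for bull fertility and of -1.57 (SE 0.62) for daughter fertility. The deposited values of miR-181a in the authors' deposited tables were -0.04 (SE 0.58) and 0.42 (SE 0.54). None passed the adjusted threshold in either comparison. For daughter fertility 2 of 5, miR-342 and miR-181d (miR-181d named after its value was seen), had an unadjusted p under 0.05, both negative. Of all tested miRNAs 6.1% were under 0.05 in either direction, and 2.31% were under 0.05 and negative. Several of these miRNAs are expressed in many tissues as well, so their levels do not mark leukocytes alone.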

How the data were processed

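Small RNA libraries of 10 bull sperm samples were made with a miRNeasy extraction and a NEBNext kit, per the labels' protocols. The submitters' processing notes list Trimmomatic 0.39 and DESeq2 1.34.0 with no role. Which aligner, build, miRNA annotation and counting rules were used, and how reads that fit both miR-146a and miR-146b were counted, is not given in the sources used here.

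Per the file headers, the authors' values for each miRNA are a mean normalized signal, a log2 fold change, its SE, a Wald statistic (score) and a p-value before and after adjustment. The header names stand 1 column to the left of their values. The deposited adjusted p equalled a Benjamini-Hochberg adjustment over the rows that have a p, to within 5.98e-14. The planned count tests were replaced by these deposited values, since no value per sample was at hand. No label states that the samples are separate bulls, so the p-values cover only the spread between these samples. 95% intervals are the fold change ± the normal quantile times the SE.

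The deposited bull fertility sign was read as low over high. Between the tables miR-2285ab and miR-2285dc differed in mean by an equal ratio of 1.137, as they would if their reads lay in 1 shared library. The shared libraries are all high bull fertility, and both fold changes are negative (-1.27 and -3.07). The daughter fertility fold changes of these miRNAs were negative too (-2.33 and -3.81). Of the shared libraries 1 is of low and 1 of high daughter fertility, so these signs depend on which of them holds the reads. For daughter fertility the sign rests on depth. Of 11 miRNAs with a mean of 0 for bull fertility, 8 were whole multiples (tolerance 0.001 steps) of 1 step, all 8 positive. The step was set from the mean of miR-2284y and a divisor, both chosen here, so miR-2284y is a whole multiple by construction. The size factor scales with that choice. The size factor this step implies, 1.85, was closer to that of the deepest library with low daughter fertility (2.21) than to those with high daughter fertility (up to 0.785). These depths were read from the deposited tRNA fragment signal, where all group values above 0 were multiples of 1 of 3 steps, to within 0.0001 steps.

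Members and lists were chosen with earlier results of these data known. All members are named, with up to 3 names per other list by mean level. Of 5 smooth muscle and stroma names 4 were found. Routines were tested on simulated data. For the approximate group levels this checked the arithmetic alone, at equal depths. Python 3.11.15, pandas 2.3.3, scipy 1.17.1 and matplotlib 3.10.9 were used.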

Additional observations from a re-analysis of the deposited data

How the results depend on the processing

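The count of leukocyte miRNAs past the threshold was 0 in both comparisons under each of 5 other ways of testing: adjusting over miRNAs with a mean of at least 10 or of at least 100 (where 2 members, miR-150 and miR-155, were left to test), a t distribution with 4 degrees of freedom for the Wald statistic, a p computed where the authors left it empty, and Benjamini-Yekutieli adjustment. Over all miRNAs the daughter fertility count moved to 0 with the t distribution and to 0 with Benjamini-Yekutieli adjustment, against 2, and was 3 with a p computed where the authors left it empty. The first pair of settings is stricter by construction. Centring on the median fold change or shrinking by a normal prior were tried too. Under the 7 alternatives all 86 values of the members kept their sign, but only centring could have changed a sign. The other ways of testing leave the fold change as it is, and shrinkage cannot turn it round. The 72 values with an adjusted p kept their side of the threshold, and the 14 shrunken ones have none. With no member called, the t distribution and Benjamini-Yekutieli adjustment could not have moved one across the threshold. Shrinkage brought miR-146a to 0.24 for bull and 1.40 for daughter fertility on the log2 scale, and its adjusted p for daughter fertility ran from 0.183 to 1. The alternatives planned for counts per sample (edgeR with DESeq2 as an alternative, filters, leaving out each replicate) were not run, because the tables hold no value per sample. No paired analysis was possible because the columns carry no replicate. Levels near that of miR-142-5p leave wide intervals.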
